A study of Mus musculus with 12 samples.

Results

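The 31 genes described here encode the enzymes and transporters of glycolysis, the fates of its end products, and the cell's oxygen-sensing response. They were taken as a list of symbols, and each matched 1 of the 40800 gene IDs of the count table. Whole ventricles of mouse hearts at embryonic day 12.5 were profiled by bulk RNA sequencing. Of 12 libraries, 6 were labelled control and 6 carried the genotype label wnt gof, written Wnt GOF below, in which the Wnt pathway is engineered to be more active. The labels give no strain, allele, Cre driver or genotype of the controls, nor do they say whether a library holds 1 embryo or several, so p-values measure only the spread between these libraries. The series title contrasts right and left ventricles, but every library here is labelled only as ventricles.

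Glycolysis splits glucose into pyruvate. Glucose enters through GLUT transporters, is phosphorylated by hexokinase, committed by phosphofructokinase, and cleaved by aldolase. The lower steps, from glyceraldehyde-3-phosphate dehydrogenase to pyruvate kinase, yield ATP. Lactate dehydrogenase then regenerates NAD+, and pyruvate dehydrogenase kinases limit the oxidation of pyruvate in the mitochondria by shutting pyruvate dehydrogenase. The embryonic heart relies heavily on this pathway before it turns to fatty acids after birth. When oxygen is scarce, prolyl hydroxylases no longer mark HIF1A for destruction, and the stabilised factor induces many of these genes.

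Library totals ran from 10130088 to 17526325 counts among controls and from 12127026 to 17184662 counts among Wnt GOF libraries. Axin2, a direct target of the Wnt pathway, had a control level of 2.97 ± 1.09 CPM (reads scaled to a common library size, mean ± SD, n = 6) and a Wnt GOF level of 18.3 ± 8.18 CPM, with Wnt GOF 5 at 3.77 CPM, among the controls. The cardiomyocyte genes Tnnt2 and Myl2 were at 3912 and 3151 CPM in control libraries, and the summed markers of skeletal muscle stayed at or under 1.71 CPM in each library. Summed hepatocyte markers were uneven, from 1.39 CPM in control 2 to 28.9 and 30.6 CPM in Wnt GOF 3 and 4. The libraries fell into 3 sets that cut across the groups, found by clustering all 14774 tested genes after the data were seen. Each set holds 2 control and 2 Wnt GOF libraries, namely control 2 and 3 with Wnt GOF 1 and 2, control 1 and 6 with Wnt GOF 5 and 6, and control 4 and 5 with Wnt GOF 3 and 4. The closest pairs were Wnt GOF 3 and 4, Wnt GOF 1 and 2, and control 2 and 3, with a mean chi-square per gene of 3.07 to 3.32, against 12.8 for the next pair and about 1 for sampling noise. The labels do not say what the sets are, nor whether a close pair is a pair of separate samples or repeat libraries of 1 sample. If they are repeats, each n of 6, SD, SE and p below rests on fewer samples. Summing each of these 3 pairs into 1 library was an alternative added after seeing the data. There edgeR called 0 of the 31 genes, and only 0.00662% of all tested genes. Of the 31, 0 had an unadjusted p under 0.05 in that fit, and the share of all genes under it is not given here.

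None of the 31 genes passed the test between Wnt GOF and control ventricles. EdgeR's quasi-likelihood test, with Benjamini-Hochberg adjustment over all 14774 genes tested and a threshold of 0.05, called 0 higher and 0 lower, where it called 0.501% of all tested genes, 0.433% higher and 0.0677% lower. All 31 passed the filter on low counts. At an unadjusted p under 0.05 there were 2, Slc2a4 with a lower and Gapdh with a higher mean, against 6.30% of all genes. DESeq2 called 0 of the 31 and 1.08% of all genes. The median log2 fold change of the 31 was -0.06, with 23 below 0, beside a median of 0.00 over all genes, of which 7324 of 14774 lay below 0. Between-group ranges overlapped in each of the 31, and 0.460% of all genes did not overlap. Without control 2 or control 3 the number at an unadjusted p under 0.05 was 0, it was 1 without control 4 or any of Wnt GOF 1 to 5, and it was 3 without control 6. Without the 4 libraries of the set of control 2 and 3, edgeR called 0 of the 31 and 0.0135% of all genes.

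**Figure D1:**
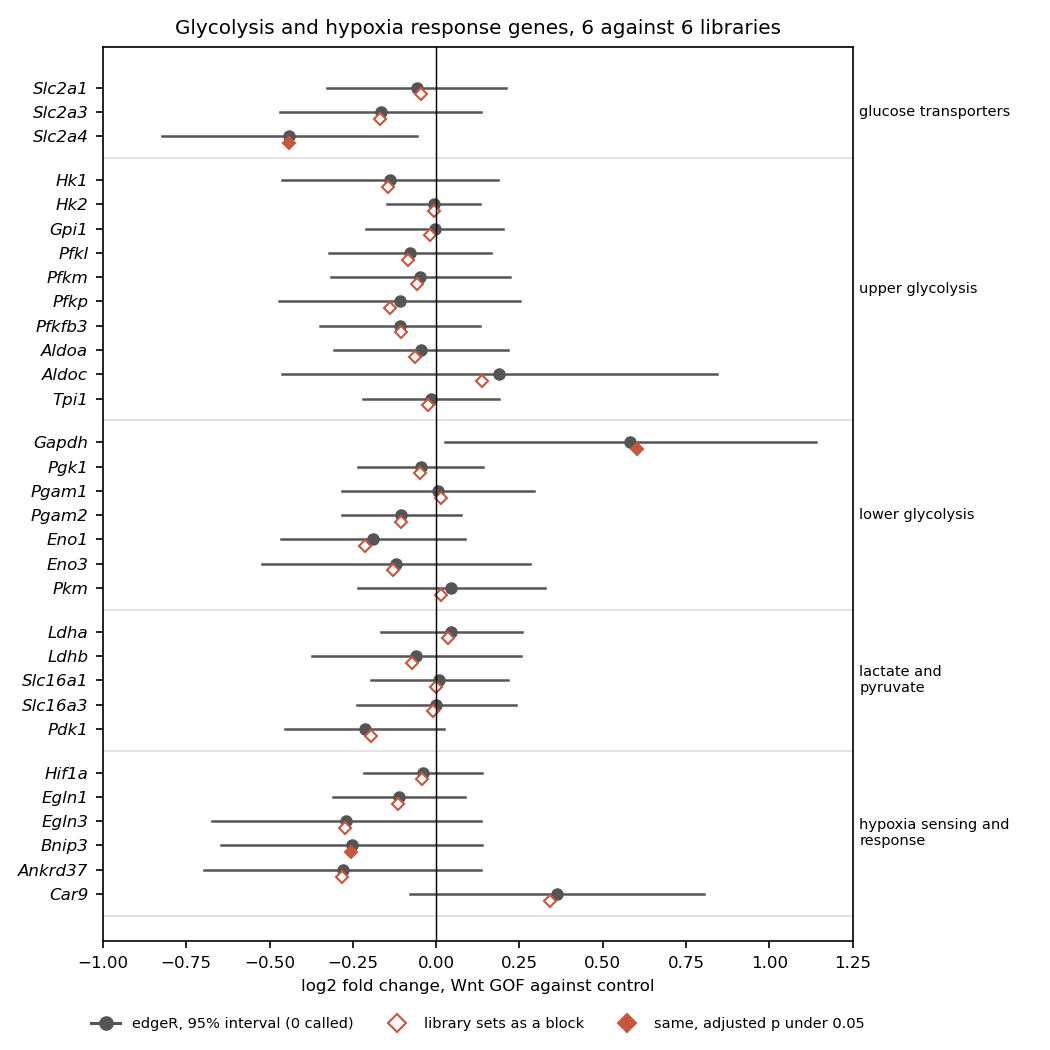
Log2 fold change (x axis) of each of the 31 genes (y axis, by role), Wnt GOF against control, with grey dots and 95% intervals from edgeR over 6 against 6 libraries; diamonds are the same estimate with the library sets as a block, filled where the adjusted p was under 0.05. The grey intervals cover 0 for all but Slc2a4 and Gapdh, and the filled diamonds are Slc2a4, Gapdh and Bnip3.

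Taking the 3 library sets as a blocking term, an alternative added after seeing the data, edgeR called 3 of the 31, where it called 2.00% of all tested genes. Gapdh rose by 0.60 ± 0.0935 on the log2 scale (SE, adjusted p = 0.00217), Slc2a4 fell by 0.44 on the log2 scale (adjusted p = 0.0024), and Bnip3 fell by 0.26 (adjusted p = 0.029). The sets were found in these same libraries, so these p-values can be too small. The estimates without the block were 0.58, -0.44 and -0.25. Without the block, the edgeR adjusted p was 0.738 for Gapdh, 0.6248 for Slc2a4 and 0.999 for Bnip3. Under the 24 other alternatives none of the 31 was called.

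Among the glucose transporters, Slc2a1, which encodes GLUT1, the main carrier of the embryonic heart, had the highest level per length, at 61.4 ± 12.3 CPM per kilobase of exon in control libraries. Slc2a4 encodes the insulin-responsive GLUT4 and had 8.20 ± 2.01 CPM per kilobase. Slc2a3 encodes GLUT3, a carrier of high affinity, and had 5.49 ± 1.15 CPM per kilobase. Of the length-scaled total of these 3 genes, Slc2a1 made up 81.2% ± 5.51 in control and 84.3% ± 3.46 in Wnt GOF libraries (SD, n = 6).

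Slc2a4 (ENSMUSG00000018566) ranged from 21.9 to 37.5 CPM in control libraries, with a median of 25.5, and from 15.8 to 29.2 CPM in Wnt GOF libraries, with a median of 19.6. The ranges overlapped: control 2 and 3 were the highest of all, and Wnt GOF 2 lay above the other 4 controls. The log2 fold change was -0.44 ± 0.18 (SE, unadjusted p = 0.027, edgeR). Inside each library set both Wnt GOF libraries lay below both controls, 21.3 and 17.9 against 24.9 and 26.1 CPM, 25.7 and 29.2 against 37.5 and 37.2, and 15.8 and 16.2 against 21.9 and 23.6. Fewer cells of a type and less RNA per cell cannot be told apart in bulk tissue, here or in any result below.

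Slc2a1 ranged from 151 to 258 CPM in control (median 223) and from 184 to 246 CPM in Wnt GOF libraries (median 192), a log2 fold change of -0.06 ± 0.126. The lowest library was control 2 and the highest control 1, so the spread within the controls exceeded any difference between groups. Slc2a3 ranged from 31.5 to 55.4 CPM in control (median 38.3) and from 27.2 to 43.2 CPM in Wnt GOF libraries (median 36.7). Its log2 fold change was -0.17 ± 0.142, with control 1 alone above 50.

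**Figure D2:**
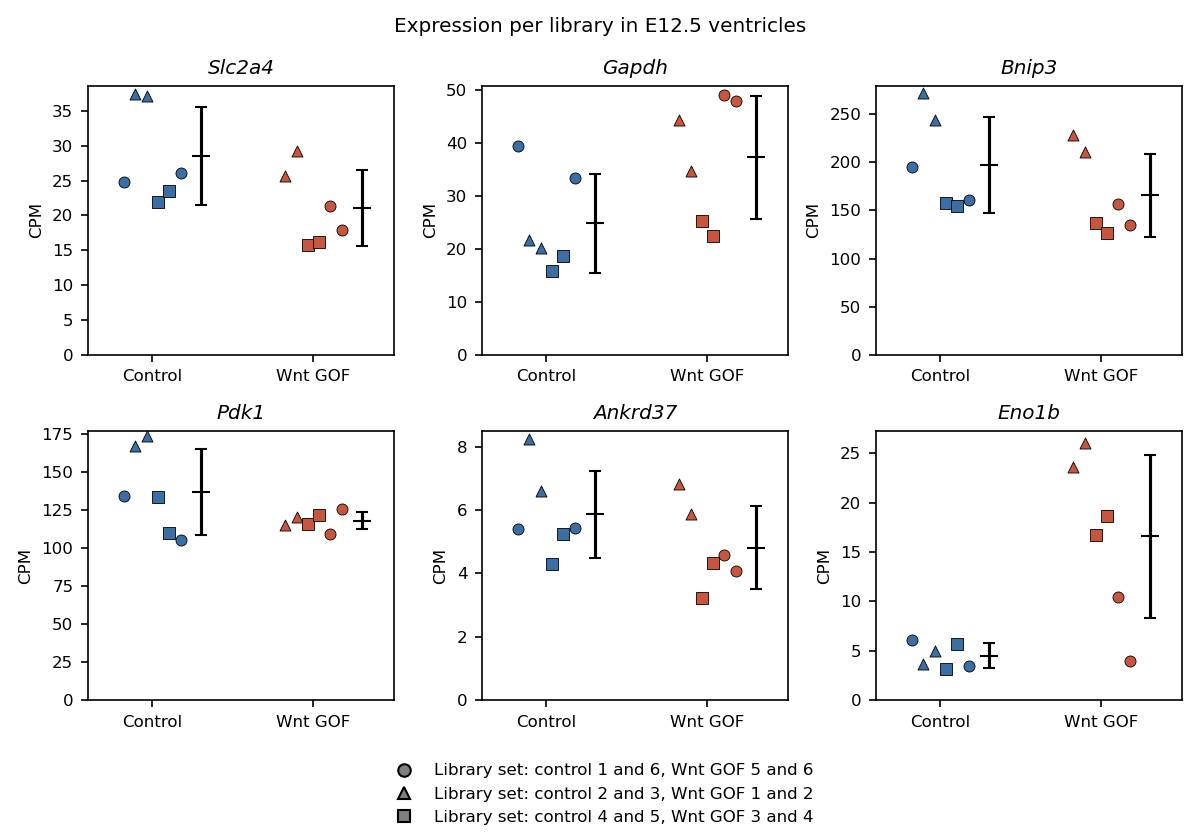
CPM (y axis, from 0) of 6 genes in each of the 12 libraries by group (x axis), with the mean and SD of each group at its right and the marker shape giving the library set. Slc2a4 and Bnip3 are lower and Gapdh higher in Wnt GOF than in control libraries of the same shape, although the groups overlap, and Eno1b in Wnt GOF 6, at 3.91 CPM, lies among the controls.

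Of 10 genes of the upper, ATP-consuming phase of glycolysis, 0 were called and 9 lay below 0, with log2 fold changes from -0.14 to 0.19. Hexokinase traps glucose in the cell as glucose-6-phosphate. Hk1, the widely expressed form, ranged from 157 to 281 CPM in control (median 217) and from 144 to 233 CPM in Wnt GOF libraries (median 219), a log2 fold change of -0.14 ± 0.152. Hk2, the form of muscle and heart, was at 112.3 ± 7.07 and 111.7 ± 6.35 CPM in control and Wnt GOF libraries, with the lowest within-group SD of the 31 (0.0874 on the log2 scale). The 95% interval of its log2 fold change ran from -0.15 to 0.13. Gpi1, which isomerises glucose-6-phosphate to fructose-6-phosphate, was at 451.6 ± 31.9 and 450.3 ± 70.5 CPM.

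Phosphofructokinase is the committed step, and its 3 subunit genes were all expressed. Per length, the muscle-type Pfkm made up 38.8% ± 3.25 of their total in control libraries, the liver-type Pfkl 35.4% ± 2.15 and the platelet-type Pfkp 25.9% ± 1.89. In Wnt GOF libraries the shares were 39.5%, 35.4% and 25.0%, each within the SD of the controls. In CPM the order was the reverse, with control means of 369 for Pfkp, 250 for Pfkl and 137 for Pfkm. Over all annotated exons their lengths were 13.4, 6.68 and 3.34 kilobases, so the order of the shares rests on these lengths. Pfkl ranged from 203 to 298 CPM in control (median 251) and from 189 to 294 CPM in Wnt GOF libraries (median 235). Pfkfb3, which makes the activator fructose-2,6-bisphosphate, ranged from 18.4 to 27.5 CPM in control (median 22.2) and from 16.8 to 24.0 CPM in Wnt GOF libraries (median 21.0). For both genes the groups overlapped over most of their ranges, with log2 fold changes of -0.08 ± 0.115 and -0.11 ± 0.114.

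Aldoa, the muscle aldolase, had the highest level per length of the 31, at 986 ± 115 CPM per kilobase in control libraries. It ranged from 2448 to 3271 CPM in control (median 2854) and from 2216 to 3550 CPM in Wnt GOF libraries (median 2592). Aldoc, the brain-type aldolase, made up only 0.598% of the length-scaled aldolase total in control libraries. It lay at 27.1 and 29.1 CPM in control 2 and 3 and at 35.6 and 37.1 CPM in Wnt GOF 1 and 2, while the other 8 libraries lay between 13.1 and 16.8. That gap follows the library set and not the genotype, and the log2 fold change was 0.19 ± 0.301. Tpi1, which interconverts the triose phosphates, was at 663 ± 63.3 and 656.4 ± 95.8 CPM.

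Of 7 genes of the lower, ATP-yielding phase, 0 were called and 4 lay below 0. Gapdh (ENSMUSG00000057666), the step that reduces NAD+, ranged from 15.8 to 39.4 CPM in control (median 20.9) and from 22.3 to 49.0 CPM in Wnt GOF libraries (median 39.5). Control 1 and 6 lay among the Wnt GOF libraries, and Wnt GOF 2, 3 and 4 among the controls. The log2 fold change was 0.58 ± 0.258 (SE, unadjusted p = 0.0415, edgeR). Inside each library set both Wnt GOF libraries lay above both controls, 49.0 and 47.8 against 39.4 and 33.3 CPM, 44.3 and 34.6 against 21.7 and 20.04, and 25.2 and 22.3 against 15.8 and 18.5. Of the 31 genes 1 was separated upward in every set in this way, and 3 downward, namely Slc2a4, Bnip3 and Eno3, where 1.52% and 1.44% of all genes were.

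The Gapdh level was low for a glycolytic enzyme. It stood at 6.00 ± 2.26 CPM per kilobase in control libraries, against 241 ± 23.0 for Tpi1, the step before it. In the GENCODE M21 transcripts, 58.4% of the 50-base windows of Gapdh also occur in transcripts of other genes, 218 in all, of which 215 are annotated as pseudogenes. The same share was 68.0% for Pgk1, 49.5% for Eno1 and 41.5% for Pgam1, and these 4 were the only genes of the 31 above 40%. By contrast 16 of the 31, Slc2a4 and Hk2 among them, shared no window, and Bnip3 shared 20.7%. The sources used here do not give how reads matching several places were counted, and the part of shared sequence in the Gapdh difference was not tested.

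**Figure D3:**
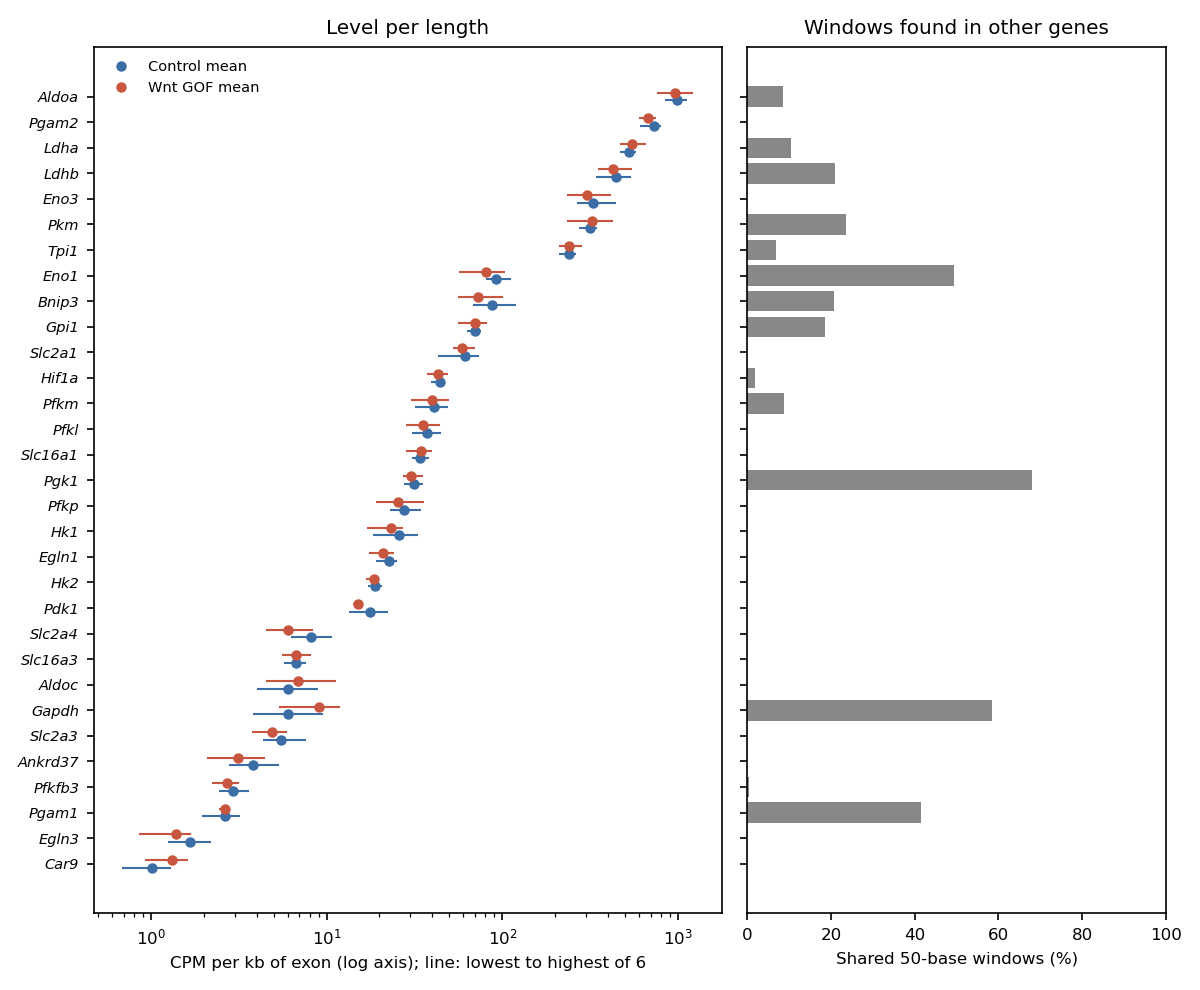
Left, CPM per kilobase of exon (log x axis) of each gene, with dots for group means and lines from the lowest to the highest of 6 libraries; right, the share of 50-base transcript windows (x axis, percent) also found in another annotated gene. Levels run from 1.02 for Car9 to 986 for Aldoa in control libraries, and Gapdh and Pgam1 combine low levels with shares of 58.4% and 41.5%.

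Pgk1, the first ATP-yielding step, was at 70.2 ± 7.33 and 68.0 ± 7.80 CPM. For the next step, the muscle-type mutase Pgam2 ranged from 507 to 672 CPM in control (median 635) and from 501 to 631 CPM in Wnt GOF libraries (median 561), a log2 fold change of -0.10 ± 0.0842. The brain-type Pgam1, at 5.25 ± 0.865 and 5.27 ± 0.269 CPM, is among the genes with shared sequence. Pkm, pyruvate kinase, ranged from 1372 to 1720 CPM in control (median 1591) and from 1171 to 2137 CPM in Wnt GOF libraries (median 1547). Its highest libraries were Wnt GOF 1 and 2 and its lowest Wnt GOF 3 and 4, so the widest gap was inside 1 group, and the log2 fold change was 0.05 ± 0.132.

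Enolase forms phosphoenolpyruvate. Eno3, the muscle form, was at 730.4 and 775.2 CPM in control 2 and 3 and at 698.3 and 724.3 CPM in Wnt GOF 1 and 2, and between 403 and 490 CPM in the other 8 libraries. Eno1, the widely expressed form, ranged from 437 to 601 CPM in control (median 480) and from 306 to 560 CPM in Wnt GOF libraries (median 454), a log2 fold change of -0.19 ± 0.13. Its near-identical copy Eno1b, which is not one of the 31, ranged from 3.10 to 6.10 CPM in control (median 4.33) and from 3.91 to 26.1 CPM in Wnt GOF libraries (median 17.7). Eno1b rose by 1.89 ± 0.375 on the log2 scale (adjusted p = 0.0453 in edgeR), although Wnt GOF 6 lay among the controls. Of the windows of Eno1b, 85.2% are shared with other genes, most of all with Eno1. The call was kept in 8 of 25 alternatives, DESeq2 among them (adjusted p = 8.99e-06), and alternatives gave adjusted p-values up to 0.733. Leaving out any 1 control library, or Wnt GOF 1, 2, 3 or 4, ended the call of Eno1b (edgeR adjusted p of 0.0615 to 0.129), and blocking on the sets gave 0.0536. Summed with Eno1, the pair had 500.6 ± 57.0 CPM in control libraries, against 451.7 ± 92.2 CPM in Wnt GOF libraries.

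Among the 5 genes that handle lactate and pyruvate, 0 were called. Ldha, the subunit that favours lactate, ranged from 1548 to 1901 CPM in control (median 1759) and from 1539 to 2163 CPM in Wnt GOF libraries (median 1662). Ldhb, the heart subunit, ranged from 535 to 842 CPM in control (median 705) and from 552 to 854 CPM in Wnt GOF libraries (median 603). Their log2 fold changes were 0.05 ± 0.0994 and -0.06 ± 0.147. Per length, Ldha made up 54.5% ± 2.98 of the total of the pair in control and 56.2% ± 2.51 in Wnt GOF libraries. The monocarboxylate transporters Slc16a1 and Slc16a3, which carry lactate across the membrane, were at 150.5 ± 14.1 and 35.7 ± 4.00 CPM in control libraries. Their log2 fold changes were 0.01 and 0.00, with 95% intervals from -0.20 to 0.22 and from -0.24 to 0.24.

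Pdk1, the kinase that shuts pyruvate dehydrogenase and a known HIF1 target, ranged from 105 to 173 CPM in control (median 134) but only from 109 to 126 CPM in Wnt GOF libraries (median 118). The SD was 28.3 CPM in control and 5.80 CPM in Wnt GOF libraries, a difference that was not tested. Control 2 and 3 lay at 166.6 and 173.2 CPM and control 1 and 4 at 134.1 and 133.1 CPM, all above each Wnt GOF library. Control 5 and 6 lay at 109.5 and 104.9 CPM. The log2 fold change was -0.21 ± 0.112 (unadjusted p = 0.0741, edgeR). Within sets it was -0.53 in that of control 2 and 3, and -0.02 in each of the others.

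Ratios between related genes do not depend on how libraries are scaled, and 11 such pairs were compared by exact two-sided permutation tests of the group labels (924 arrangements, smallest possible p 0.00216). None differed between the groups after Benjamini-Hochberg adjustment over the 11 pairs (adjusted p from 0.696 to 0.903). The widest difference was in Slc2a1 over Slc2a4, with mean log2 count ratios of 2.92 ± 0.617 in control and 3.33 ± 0.44 in Wnt GOF libraries (SD, n = 6), a difference of 0.40 (exact permutation p = 0.225). Ldha over Ldhb differed by 0.10 (p = 0.294 in the exact permutation test) and Hk1 over Hk2 by -0.13 (p = 0.476 in the same exact test). Egln1 over Egln3 differed by 0.17 (exact permutation p = 0.245).

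**Figure D4:**
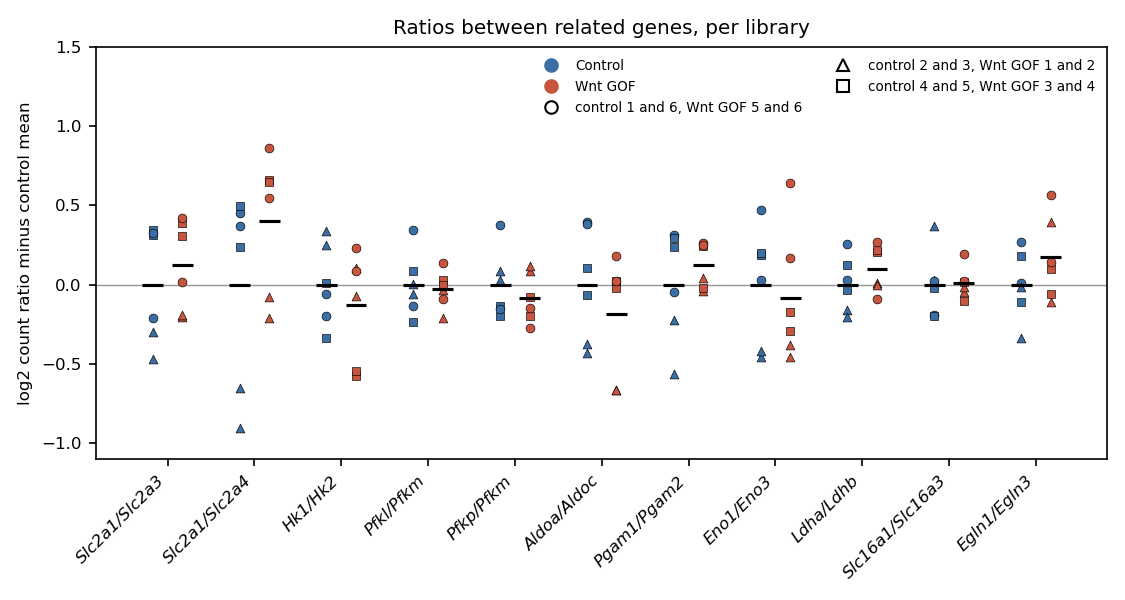
Log2 ratio of counts of related genes (y axis, minus the control mean) for 11 pairs (x axis), with 1 point per library, colour for group, shape for library set and a bar for each group mean. The bars of the 2 groups lie within the spread of the points in each pair. For Slc2a1 over Slc2a4, Aldoa over Aldoc and Eno1 over Eno3 the triangles, control 2 and 3 and Wnt GOF 1 and 2, lie lowest.

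The 6 genes of oxygen sensing and the hypoxia response had 0 calls, with 5 below 0. Hif1a, the oxygen-regulated subunit of the transcription factor, ranged from 231.1 to 277 CPM in control (median 271) and from 219.6 to 289.5 CPM in Wnt GOF libraries (median 254). The log2 fold change was -0.04 ± 0.0834, with a 95% interval from -0.22 to 0.14. HIF1A is controlled mainly through protein stability, which RNA does not show. Egln1, which encodes the main oxygen-sensing hydroxylase PHD2, was at 81.2 ± 8.39 and 75.2 ± 9.47 CPM. Egln3, which encodes PHD3 and is itself induced by HIF, ranged from 3.34 to 5.85 CPM in control (median 4.46) and from 2.29 to 4.52 CPM in Wnt GOF libraries (median 3.86), a log2 fold change of -0.27 ± 0.19.

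Bnip3, a HIF target that promotes removal of mitochondria, ranged from 155 to 272 CPM in control (median 178) and from 126 to 228 CPM in Wnt GOF libraries (median 147). The log2 fold change was -0.25 ± 0.183 (unadjusted p = 0.187, edgeR), and it was -0.14 without control 2, the highest library. Inside each library set both Wnt GOF libraries lay below both controls, 157 and 134.9 against 195.5 and 161.3 CPM, 228.1 and 211.1 against 271.9 and 243.9, and 136.5 and 126.2 against 157.5 and 154.8. Ankrd37, a small ankyrin-repeat protein and HIF target, ranged from 4.29 to 8.23 CPM in control (median 5.42) and from 3.21 to 6.83 CPM in Wnt GOF libraries (median 4.46), a log2 fold change of -0.28 ± 0.196. Car9, the carbonic anhydrase used as a marker of hypoxic cells, was the lowest of the 31 per length, with 16 counts in its lowest library. It ranged from 1.59 to 2.99 CPM in control (median 2.49) and from 2.14 to 3.76 CPM in Wnt GOF libraries (median 3.28). Its log2 fold change of 0.36 ± 0.208 was opposite in sign to the other 5, and within sets it was -0.27 in that of control 1 and 6 but 0.59 and 0.79 in the others.

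HIF binds the hypoxia response element, whose core is ACGTG or GCGTG. RefSeq promoters were listed for 29 of the 31 genes, 42 start sites in all, on build GRCm38.p6. In the 250 bases before the start, on either strand, 34 of 42 (81.0%) held ACGTG or GCGTG, against 38.6% of all 32851 promoters listed, and 20 of 42 (47.6%) held ACGTG, against 16.6% of all. Both cores contain a CG step, so promoters rich in CG hold them more often, and several starts of 1 gene overlap. The promoters of 4 genes are shown, 5′ to 3′ and ending at the base before the start, with each match in capitals (CACGT and CACGC are the same cores read on the other strand, and matches can overlap). Bnip3 and Gapdh are shown as genes called in opposite directions with the library sets as a block, Ankrd37 as a HIF target that shared no window, and Ldha, at the first of its 2 listed starts, as the promoter with the most ACGTG matches among those of the 29 genes.
Bnip3 (chr7:138909507-138909756, minus strand): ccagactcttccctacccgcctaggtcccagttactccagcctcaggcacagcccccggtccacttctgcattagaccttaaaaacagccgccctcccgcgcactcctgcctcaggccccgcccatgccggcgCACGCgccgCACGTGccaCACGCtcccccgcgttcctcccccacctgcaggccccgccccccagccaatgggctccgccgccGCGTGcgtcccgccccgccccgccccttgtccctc
Ankrd37 (chr8:45999851-46000100, minus strand): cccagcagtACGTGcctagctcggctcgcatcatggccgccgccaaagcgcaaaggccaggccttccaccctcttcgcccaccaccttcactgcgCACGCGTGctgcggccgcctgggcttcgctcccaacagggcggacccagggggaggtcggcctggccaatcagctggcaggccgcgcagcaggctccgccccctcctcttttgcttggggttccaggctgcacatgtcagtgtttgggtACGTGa
Ldha (chr7:46845554-46845803, plus strand): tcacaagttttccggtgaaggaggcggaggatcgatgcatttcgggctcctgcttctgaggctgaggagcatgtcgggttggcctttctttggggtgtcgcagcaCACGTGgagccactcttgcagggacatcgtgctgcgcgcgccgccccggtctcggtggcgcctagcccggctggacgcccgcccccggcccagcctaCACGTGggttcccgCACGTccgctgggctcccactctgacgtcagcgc
Gapdh (chr6:125165774-125166023, minus strand): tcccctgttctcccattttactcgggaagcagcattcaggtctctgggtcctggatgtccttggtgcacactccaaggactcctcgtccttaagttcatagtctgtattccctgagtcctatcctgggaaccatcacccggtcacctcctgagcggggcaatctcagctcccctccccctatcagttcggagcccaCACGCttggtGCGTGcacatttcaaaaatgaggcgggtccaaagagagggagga
The Bnip3 window held 5 matches, the Ankrd37 window 4, the Ldha window 5 and the Gapdh window 2. In Bnip3 and Ldha the letters CACGTG hold ACGTG on both strands. A match is a description of these letters and not a site of binding.

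Within the groups, the 31 genes varied with the library sets. In control 2 and 3 and in Wnt GOF 1 and 2, between 23 and 26 of the 31 lay above the mean of their own group, against 7 to 14 in the other 8 libraries. In 9 genes, Pfkm, Pfkp, Aldoa, Aldoc, Pgk1, Eno3, Ldhb, Bnip3 and Ankrd37, these 4 libraries all lay above the other 8, where 6.29% of all genes did. Only Hif1a lay below in all 4, at 219.6 to 232.2 against 251.9 to 289.5 CPM, where 6.68% of all genes did. The 3 sets held a median of 72.0% of the within-group variance of the 31 genes, against 44.3% over all genes tested. This share was 97.8% for Eno3 and 94.7% for Slc2a4, but 6.68% for Hk2 and 5.05% for Car9. The sets were made from these same libraries, so the shares carry no test.

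**Figure D5:**
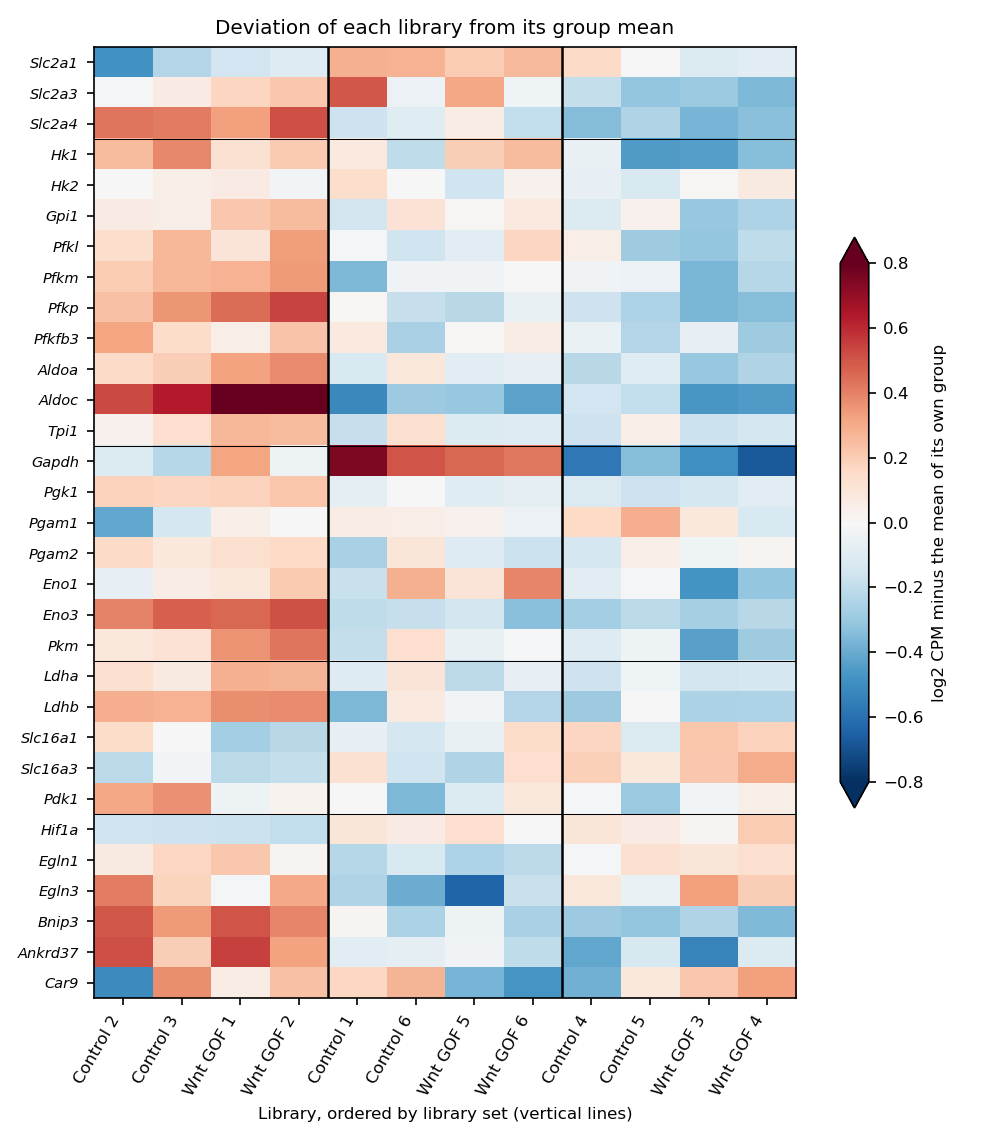
Log2 CPM of each gene (rows, by role) in each library (columns, ordered by library set) minus the mean of its own group, in colour from -0.8 to 0.8. The first 4 columns, control 2 and 3 and Wnt GOF 1 and 2, are red for most glycolytic genes, Bnip3 and Ankrd37, and blue for Slc2a1, Hif1a and Slc16a3.

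Summed marker levels moved with the sets too. In the same 4 libraries the 13 erythroid markers found summed to 9725 to 12945 CPM, against 13952 to 91378 in the other 8, and the 14 cardiomyocyte markers to 45927 to 49582 CPM, against 37396 to 43362. The 8 epicardial markers summed to 270.8 to 295.9 CPM there, against 338.4 to 406.4. Single genes did not all follow their sum. Of the cardiomyocyte markers, Actc1 and Ttn were higher in these 4 libraries than in the other 8. Myl7 was lower there, at 1069 to 1418 against 1997 to 2873 CPM. Of the epicardial markers, Tbx18 was lower there, but Msln was higher, at 26.8 to 36.9 against at most 23.9 CPM. Between control and Wnt GOF libraries the erythroid, cardiomyocyte and epicardial sums overlapped, with erythroid markers at 9725 to 75663 and 12214 to 91378 CPM. Of 10 macrophage and leukocyte markers, 5 had an unadjusted p under 0.05 in edgeR, against 6.30% of all genes tested. All 5 were higher in Wnt GOF, and 0 of the 10 were called. The median log2 fold change of the 10 was 0.39, with Lyz2, Mrc1 and C1qa at -0.07, -0.01 and -0.05. The sum of the 10 was 111 to 144.1 CPM in control and 131.9 to 161.5 CPM in Wnt GOF libraries. Lyz2 alone had means of 65.7 and 62.7 CPM. Of 6 markers of mural cells, which wrap vessels, edgeR called 1, Rgs5, lower, at 78.8 ± 29.7 and 13.5 ± 9.17 CPM (log2 change -2.54 ± 0.461, adjusted p = 0.0404), and the mural sums of 215.1 to 408.4 and 191.3 to 276.5 CPM overlapped. The part of cell makeup in the levels of the 31 genes was not tested.

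Beyond the 31, a further 54 genes of glycolysis, pyruvate and glycogen handling were listed, of which 43 passed the filter, 1 rose in edgeR, 0 fell and 42 were not called. The one was Eno1b, described above. The median over the 43 was -0.03 on the log2 scale. Next by p were Eno2, the neuronal enolase, at 27.4 ± 5.59 and 18.5 ± 6.29 CPM (a difference of -0.56 ± 0.201 in log2, adjusted p = 0.493 in edgeR), and Pdp2, a phosphatase that reactivates pyruvate dehydrogenase, at 50.7 ± 8.95 and 61.6 ± 10.9 CPM (0.28 ± 0.13, adjusted p = 0.775). Blocking on the library sets, edgeR called Eno2 lower (adjusted p = 0.00575).

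Of 42 other genes of the hypoxia pathway, 41 passed the filter and 0 were called by edgeR, with 30 below 0 and a median of -0.05. At an unadjusted p under 0.05 there were 5, and 4 of them lay below 0, against 931 of all 14774 genes tested, 380 of them below 0. Stc2, a secreted glycoprotein, was at 25.1 to 29.3 CPM in control 1, 2 and 3 but at 7.07 to 8.47 CPM in control 4, 5 and 6, and at 5.43 to 10.6 CPM in Wnt GOF libraries (a difference of -1.15 ± 0.374 in log2, adjusted p = 0.396 in edgeR). Mxi1, an antagonist of MYC, was at 30.8 ± 2.26 and 26.2 ± 2.29 CPM (-0.23 ± 0.0822 in log2, adjusted p = 0.459 in edgeR). Adm, the vasodilator adrenomedullin, was at 9.03 ± 1.56 and 7.09 ± 1.35 CPM (-0.35 ± 0.154, adjusted p = 0.709 in edgeR). Blocking on the sets, edgeR called 2 genes of this list lower, Bhlhe40 (adjusted p = 0.047) and Loxl2 (0.0242).

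In the authors' deposited table all 31 genes were listed and 0 had an adjusted p under 0.05. The lowest there was 0.629 for Slc2a4 (log2 fold change -0.446), and the authors' deposited table gave 0.589 for Gapdh (adjusted p = 0.661) and 1.72 for Eno1b (adjusted p = 0.186).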

How the data were processed

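Whole-number read counts per Ensembl gene were deposited by the authors. The submitters' processing notes name Subread, featureCounts and edgeR. Not given in the sources used here: versions, genome build, annotation and strand setting. Of 41422 rows, 622 repeated a gene ID with identical counts and were left out. A second table deposited by the authors holds log2 fold changes, log2 CPM, p-values and adjusted p-values, and a log-odds score and t statistic, per the file headers. Transcript number and GC percent stand in the deposited count table as annotation and were not used.

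Counts were fitted in R 4.3.3 with edgeR 4.0.16 (filterByExpr with a minimum count of 10, TMM, robust glmQLFit and glmQLFTest, group as the only term) and adjusted by Benjamini-Hochberg over 14774 genes. SE was derived from F. Exonic length came from GENCODE M21, which may not be the authors' annotation. Ratios used counts plus 0.5. Alternatives used DESeq2 1.42.0 and limma 3.58.1. The test was checked on simulated counts drawn independently for each library. Those had no library sets or close pairs, so the check does not cover these features of the data. Members and lists were chosen with earlier results of these data known. Named genes are, per role, the 3 with the lowest p and the highest in CPM, and Eno1b, Eno2, Pdp2, Stc2, Mxi1 and Adm. Aldoc, Eno3, Bnip3, Bhlhe40 and Loxl2 were described in detail or named after their values were seen.

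Same-numbered control and Wnt GOF libraries did not pair, with correlations of their deviations from -0.363 to 0.445.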

Additional observations from a re-analysis of the deposited data

How the results depend on the processing

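None of the 31 genes was called under 24 of 25 alternatives, the exception being the library sets as a block, with 3 (1 higher, 2 lower). Their median log2 fold change stayed between -0.12 and -0.02 when each library was left out. Over all tested genes, edgeR called 74, against 160 in DESeq2 and 6 in limma-voom. Leaving out each library gave 39 (without Wnt GOF 2) to 177 (without Wnt GOF 5), and also 40, 48 and 42 without Wnt GOF 1, 3 and 4. Among alternatives chosen after seeing the data, the sets as a block gave 295, the closest pairs summed 1, and leaving out the set of control 2 and 3 gave 2, that of control 1 and 6 134, and that of control 4 and 5 2. The cause was not tested. Of 925 values of single genes under alternatives, 66, in 14 genes, had the other sign, none of them called and each within 1 SE of 0 over all 12 libraries. The replicate number as a block called 0 of the 31 genes and moved Slc2a4 to an adjusted p of 0.423 and Gapdh to 0.147. As to pairing, 3 of 12 libraries correlated best with their own number. The ratios between related genes kept their side of the threshold, with sign flips over same-numbered pairs as the replicate block, where the smallest p is 0.0312. No value was flagged as an outlier in the 96 series of 6 values examined. Wnt GOF 5 did stand apart elsewhere. Its erythroid marker sum was 91378 CPM, against 12214 to 37764 CPM in the other Wnt GOF libraries. Its Axin2 level was 3.77 CPM, against 14.9 to 26.0 CPM in the others.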
